A study of Mus musculus with 2 samples.

Results

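Clec4f-positive Kupffer cells were examined in liver by single-cell RNA-seq, with 1 library from wild-type (WT) animals and 1 library from animals with a hepatocyte deletion of miR-33 (HKO). A droplet barcode was counted as a Kupffer cell when it held at least 500 unique molecular identifiers (UMIs, each 1 counted RNA molecule), at most 50% mitochondrial UMIs, at least 1 UMI of Clec4f, at least 3 of the 6 macrophage genes C1qa, C1qb, C1qc, Adgre1, Csf1r and Cd5l, fewer than 4 of 10 endothelial genes and fewer than 3 of 7 stellate cell genes. This rule took 204 of the 50078 deposited barcodes, 76 of 30078 in WT and 128 of 20000 in HKO. The cells were chosen by the measured counts of these genes, so their levels are given as a description. Both groups were male littermates carrying loxP-flanked miR-33 alleles, and the HKO animals also carried Cre under the albumin promoter, which acts in hepatocytes and leaves the miR-33 gene of Kupffer cells in place. All animals were fed CD-HFD, a high-fat diet that lacks choline, from 8 weeks of age for 6 months, so neither group was a healthy liver. Each library was made from a pool of 3 livers, with hepatocytes and sorted live non-parenchymal cells mixed in equal parts, so the share of a cell type in a library is not its share in the tissue. With 1 library per genotype there was no replicate and no test. Bracketed ranges are exact 95% intervals that cover counting error only, and differences between WT and HKO compare these 2 libraries.

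Kupffer cells are the resident macrophages of the liver sinusoids. They take up bacteria, senescent red cells, lipoproteins and cell debris from portal blood, store and export the iron of haem, and depend on signals from neighbouring endothelial and stellate cells for their identity. Clec4f, a C-type lectin receptor, is in mice a marker of this cell type, Timd4 marks long-resident Kupffer cells, and in fatty liver disease part of the population is replaced from monocytes and part takes on the lipid-associated programme of Trem2, Gpnmb, Cd9 and Spp1.

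miR-33 lies in an intron of the Srebf2 gene and represses Abca1, Abcg1, Crot and Cpt1a through its seed. Its mature 5p sequence is shown because it is the molecule removed from hepatocytes, with the seed (bases 2 to 8) in capitals, from RefSeq on GRCm38.p6 at chr15:82198127-82198147, plus strand.
mmu-miR-33-5p: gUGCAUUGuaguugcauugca
No gene of miR-33 was among the 32285 genes listed, and the deletion lies in another cell type, so it was not checked in the Kupffer cells.

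Of the barcodes that passed the UMI and mitochondrial limits, those that met the Kupffer rule made up 0.257% (76 of 29620, 0.202 to 0.321%) in WT and 0.701% (128 of 18260, 0.585 to 0.833%) in HKO, which is 2.73 times the WT share (2.04 to 3.68). The WT members include deep barcodes with few macrophage UMIs, described below, so this is a share of barcodes that met the rule. The denominator differed between the libraries, since barcodes at the depth of free RNA, many of which may hold no cell, were 22620 of the 29620 (76.4%) in WT and 8473 of the 18260 (46.4%) in HKO. Without them the shares were 1.09% (0.856 to 1.36%) and 1.31% (1.09 to 1.55%), a ratio of 1.205 whose interval of 0.900 to 1.62 holds equal shares. Members at that depth still count here, since free RNA barcodes were defined to hold fewer than 3 macrophage genes and 0 Clec4f UMIs. Among all barcodes that met the macrophage part of the rule, the Clec4f-positive share was 50.3% (76 of 151, 42.1 to 58.6%) in WT and 64.3% (128 of 199, 57.2 to 71.0%) in HKO. The 75 WT and 71 HKO barcodes with the same macrophage genes and 0 Clec4f UMIs are called Clec4f-negative macrophages below. Many members lay at the edge of the rule in WT, where 34 of 76 held a single Clec4f UMI and 29 held just 3 of the 6 macrophage genes, against 21 and 15 of 128 in HKO. At the other end, 16 WT and 61 HKO barcodes held at least 10 Clec4f UMIs, and the highest held 99 and 64. Just outside the rule, 28 WT and 18 HKO barcodes held 2 macrophage genes, 12 and 49 held 4 or more endothelial genes, and 7 in each library held 3 or more stellate cell genes.

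The WT members were mixed with hepatocyte RNA to a much greater degree than the HKO members. The 30 hepatocyte marker genes, headed by albumin and the apolipoproteins, made up 18.4% of the summed UMIs of WT Kupffer barcodes and 2.41% in HKO. Free RNA barcodes, those within 25% of the commonest depth of the library with fewer than 3 of the 6 macrophage genes and 0 Clec4f UMIs, had a median hepatocyte share of 17.98% in WT (median depth 2595 UMIs) and 15.50% in HKO (839 UMIs). Members whose hepatocyte share was under 50% of that median, called hepatocyte-poor here, numbered 20 of 76 in WT (26.3%, 16.9 to 37.7%) and 104 of 128 in HKO (81.2%, 73.4 to 87.6%). Those 20 WT barcodes carried 88.9% of the UMIs of Clec4f and the 6 macrophage genes among WT members, and the 104 HKO barcodes carried 98.1%. Of the other 56 WT members, 20 held at least 20000 UMIs, of which 4 to 36 (median 6) came from those 7 genes. That is a median of 0.995 per 10000 UMIs, with 17 of the 20 under 3, against 159 in hepatocyte-poor WT members. Their hepatocyte share was 9.19 to 24.6%, so these values do not bear out the name Kupffer cell for most of the 20. This limit on hepatocyte RNA was set after the values were seen, and counts over all genes are given for both sets. Single genes and list medians are for hepatocyte-poor members unless all members are named, and the plot of list medians shows both.

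Hepatocyte-poor members were 0.0675% (0.0412 to 0.104%) of kept barcodes in WT and 0.570% (0.466 to 0.690%) in HKO, which is 8.44 times the WT share (5.19 to 14.4), and 3.72 times (2.29 to 6.34) without the free RNA barcodes in the denominator. They formed 64.5% (20 of 31, 45.4 to 80.8%) of hepatocyte-poor macrophages in WT and 75.9% (104 of 137, 67.9 to 82.8%) in HKO, and these intervals overlap. The median depth of hepatocyte-poor Kupffer cells was 14226 UMIs in WT (2358 to 35838) and 8234 in HKO (830 to 27237), with a median of 4138 and 3048 genes per barcode and mitochondrial shares of 4.02 and 3.56%. Clec4f and the 6 macrophage genes had nearly equal medians of 159 UMIs per 10000 in both libraries (33.2 to 234 in WT, 24.0 to 347 in HKO).

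**Figure D1:**
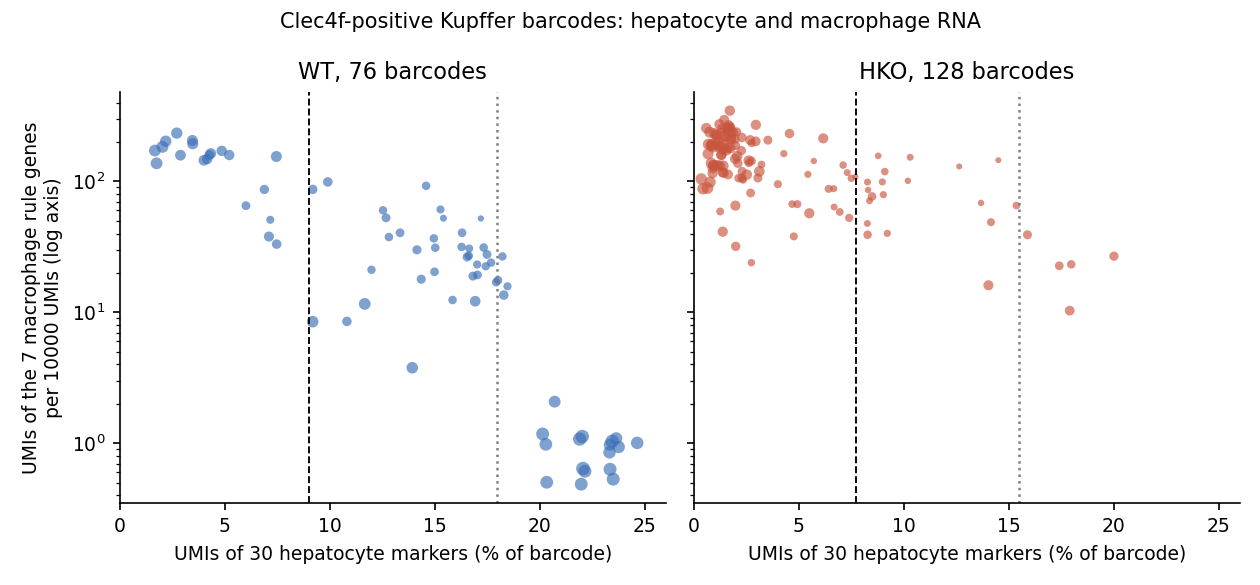
Each point is 1 Clec4f-positive Kupffer barcode, with the percent of its UMIs from 30 hepatocyte markers on the horizontal axis and its UMIs of Clec4f and the 6 macrophage genes per 10000 on the vertical log axis, in WT and HKO panels; point size grows with total UMIs, the dashed line is the hepatocyte-poor limit and the dotted line the median of free RNA barcodes. In WT 20 of 76 barcodes lie left of the dashed line and in HKO 104 of 128, and the low, large points of WT are deep barcodes rich in hepatocyte RNA.

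Of the defining markers, Clec4f, Cd5l and C1qa were used to choose the cells, and Vsig4 alone was not. In the hepatocyte-poor cells Clec4f was at 1747 UMIs per 1000000 of the summed total (CPM) in WT and 2236 CPM in HKO, Cd5l, a secreted scavenger protein, at 4837 and 5788 CPM, and C1qa, a chain of complement C1q, at 3452 and 3064 CPM. Vsig4, the complement receptor that clears opsonised particles, was found in 17 of the 20 WT and 88 of the 104 HKO cells, at 1991 CPM (1837 to 2154) in WT against 1381 CPM (1305 to 1459.8) in HKO. The T cell barcodes of the same libraries held 2.84 and 1.27 CPM of it. A Clec4f UMI alone was weaker evidence, since 3.10% of 129 WT T cells (median depth 6879 UMIs) and 0.905% of 442 HKO T cells (2798 UMIs) held 1, as did 2.10% and 0.889% of barcodes at the free RNA depth when Clec4f was not used to choose them.

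Within the hepatocyte-poor cells, markers of lymphocytes, neutrophils and endothelial cells summed to higher levels in HKO, and those of hepatocytes, dendritic cells, stellate cells and cholangiocytes to higher levels in WT. Of 16 T and NK cell markers, 3 were detected in WT with 4 UMIs (12.8 CPM in sum), Cd3d, Cd3e, Cd3g and Trac being at 0, and 15 in HKO with 235 UMIs (262 CPM) spread over 25 barcodes and reaching 2502 CPM in 1 of them. Of 11 B and plasma cell markers, 2 were detected in WT (25.6 CPM) and 9 in HKO (509 CPM), with 85.1% of the HKO UMIs in 1 barcode and Cd79a at 0. Neutrophil markers summed to 67.3 CPM in WT and 152 CPM in HKO, with barcode medians in the other order (57.8 and 0 CPM), and endothelial markers outside the rule to 981 and 1371 CPM. That endothelial list holds Maf, Cdh5 and Stab1, which are also on the macrophage lists used below. Over all members Maf alone held 184 of its 730 WT and 665 of its 1284 HKO UMIs, so the sum is not a measure of endothelial RNA. Dendritic cell markers summed to 471 and 386 CPM, stellate cell markers outside the rule to 183 and 113 CPM, and cholangiocyte markers to 76.9 and 53.6 CPM. Of the 3 dendritic cell markers with at least 20 UMIs over both libraries, 2 were higher in HKO. Over all members Bst2, also on the type I interferon list, held 640 of the 703 WT and 181 of the 356 HKO UMIs of the dendritic list. At least 4 T, NK or B cell markers together were found in 0 of 20 WT and 11 of 104 HKO barcodes. Hepatocyte markers still summed to 34850 CPM in WT and 16692 CPM in HKO, and 30 of 30 were lower in HKO.

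**Figure D2:**
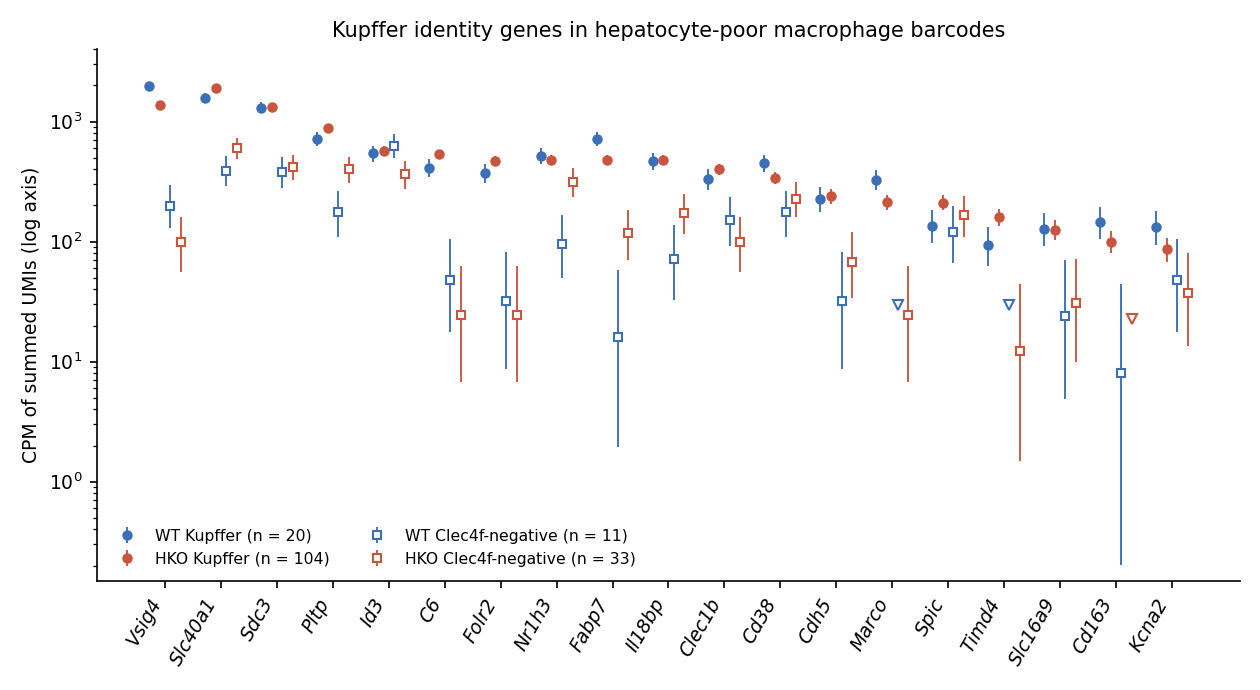
Level of 19 Kupffer identity genes in CPM on a log axis, in hepatocyte-poor Kupffer cells (filled circles, 20 WT in blue and 104 HKO in red) and hepatocyte-poor Clec4f-negative macrophages (open squares, 11 WT and 33 HKO), with 95% Poisson intervals; open triangles are the upper limit for genes with 0 UMIs. Vsig4, Folr2, C6 and Slc40a1 sit higher in the circles than in the squares of both libraries, and the blue and red circles of most genes lie close together.

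The comparison with Clec4f-negative macrophages asked what else separates cells that express Clec4f from macrophages of the same library that do not. In hepatocyte-poor barcodes (20 against 11 in WT, 104 against 33 in HKO), 152 of 3924 genes (3.87%) were at least 2-fold higher in Kupffer cells in both libraries and 63 (1.61%) at least 2-fold lower. Over all barcodes the counts were 245 of 6851 (3.58%) higher and 10 (0.146%) lower. Genes of the rule were left out of these counts. The 2 classes were split by Clec4f, so these values describe them. The Clec4f-negative cells were also shallower, with median depths of 11465 UMIs in WT and 3249 in HKO.

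Most measured genes of the Kupffer identity list were higher in Clec4f-positive cells. Of 19 measured genes, 15 were at least 2-fold higher in Kupffer cells in both libraries, where 3.87% of all genes were. Some of the 15, such as Timd4 and Marco, passed the filter through the Kupffer cells alone, so the count describes the measured genes only. The median log2 ratio of the 19 was 2.42 in WT and 1.81 in HKO, beside -0.02 and 0.08 over all genes. Vsig4 was at 1991 against 199 CPM in WT and 1381 against 98.6 CPM in HKO, a ratio of 9.99 (6.70 to 15.6) and 14.0 (8.59 to 24.6). Folr2, a folate receptor of resident macrophages, was 11.7-fold and 19.1-fold higher, and C6, a component of the membrane attack complex, 8.65-fold and 21.6-fold higher. Timd4, the phosphatidylserine receptor that binds dying cells, had no UMI in WT Clec4f-negative macrophages, so it was at least 3.89-fold higher there, and in HKO 143 UMIs against 2 gave a ratio of 12.95 (3.52 to 108). The iron exporter Slc40a1 (ferroportin) was 4.04-fold and 3.20-fold higher. The transcription factors of the list separated the classes least, with Id3 at ratios of 0.860 and 1.58 and Spic at 1.13 and 1.27.

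By size of the smaller of the 2 ratios, the genes highest in Kupffer cells were Hbegf (15.7 and 15.9), which encodes an EGF receptor ligand, Folr2, Vsig4, C6, Marco, Plxdc2, Sh3bgrl2, Mmp27, Btbd11 and 2510009E07Rik. Hbegf had 1 UMI in the Clec4f-negative cells of each library, with intervals of 2.65 to 635 and 2.79 to 637. Plxdc2, Sh3bgrl2, Mmp27 and Btbd11 had 1 UMI there in WT and 1 to 5 in HKO. Such genes passed the filter through the Kupffer cells, so their ranks are a description only. Marco, a scavenger receptor for bacteria, had 0 UMIs in WT Clec4f-negative cells and was at least 13.7-fold higher, and in HKO 8.60-fold, but 1 barcode held 50.0% of its WT and 68.9% of its HKO Kupffer UMIs. Other uptake genes were on the same side. The mannose receptor Mrc1 was 2.92-fold and 3.62-fold higher, and the median of the scavenger, phagocytic and Fc receptor list was 1.09 in WT and 0.80 in HKO on the log2 scale.

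On the list of monocyte and recruited macrophage genes, the few that were measured were mostly lower in Kupffer cells. Of 16 genes on that list 6 passed the filter, some of them only through the Clec4f-negative cells where they were high, so their medians of -4.55 in WT and -2.99 in HKO and the 5 that were at least 2-fold lower in both (1.61% of all genes) describe those 6 alone. Ccr2, the chemokine receptor that brings monocytes into tissue, was at 0 against 287 CPM in WT and 12.3 against 240.3 CPM in HKO. With 0 UMIs in WT Kupffer cells its ratio was at most 0.0335 there, and it was 0.0511 (0.0236 to 0.102) in HKO. S100a4, a calcium-binding protein of motile cells, was at most 0.0431 in WT, again with 0 UMIs in Kupffer cells, and 0.0352 in HKO. Cx3cr1, the fractalkine receptor, was at 0.0423 and 0.199. The other genes lowest in Kupffer cells were Fcgr2b, S100a6, Plcb1, Sox5, Gdf15, Fn1 and Alcam.

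Lipid-associated genes separated the classes differently in the 2 libraries, a difference that was not tested. The lipid-associated list was higher in Kupffer cells in WT (median log2 ratio 2.38 over 15 genes) and near 0 in HKO (-0.17), as over all barcodes (1.89 and -0.12 over 17 genes). The WT side rests on few cells. Of the WT Kupffer UMIs of the list without Apoe, 3 of 20 barcodes held 59.7% and the top barcode 28.0%, a spread that the counting intervals below do not cover. Trem2, a lipid-sensing receptor, was at a ratio of 4.08 (2.31 to 7.87) in WT and 0.889 (0.552 to 1.50) in HKO. Gpnmb, a lysosomal glycoprotein of lipid-laden macrophages, was at 6.54 (3.57 to 13.3) in WT and 0.594 (0.419 to 0.856) in HKO. MHC class II genes had a median of -1.36 in WT and -0.22 in HKO over 7 genes, with Cd74, the invariant chain, at 0.391 (0.356 to 0.429) and 0.967 (0.898 to 1.04). Over all barcodes these medians turned to 0.027 and 0.25, so no direction is read for this list.

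Over all members, 76 in WT and 128 in HKO and so with the hepatocyte-rich barcodes included, the genes that led against all other kept barcodes of the liver, all outside the rule, were Mmp12 (57.4-fold in WT and 57.4-fold in HKO), Ksr2, Kcnj16, Trem2 (69.2-fold in WT and 44.9-fold in HKO), Gpnmb (74.3-fold in WT and 42.7-fold in HKO), Hk3, Fabp7, Tmem117, Cd163, Adrb1, Kcnk13, Ccl24, Ear2, Vsig4 (35.9-fold in WT and 40.7-fold in HKO), Gm14221, Vcam1, Ccl6, B430306N03Rik, Siglec1 and Wfdc17. The first rank rests on 1 barcode, which held 65.5% of the WT Mmp12 UMIs and without which Mmp12 was 20.1-fold higher in WT. Without the top barcode of each gene, Trem2 was 48.8-fold, Gpnmb 49.9-fold and Vsig4 30.5-fold higher in WT. Among the named genes, Mmp12 is macrophage elastase, Siglec1 a sialic acid receptor of tissue macrophages and Vcam1 an adhesion molecule.

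The comparison of HKO with WT asked whether Kupffer cells differ when hepatocytes lack miR-33. Over all members, 3353 of 9476 genes (35.4%) were at least 2-fold higher in HKO and 1962 (20.7%) at least 2-fold lower. In hepatocyte-poor members these were 634 (8.92%) and 383 (5.39%) of 7109 genes, of which 3928 were higher and 3181 lower by any amount. A gene needed 20 UMIs over both libraries, and the hepatocyte-poor cells held 895945 UMIs in HKO against 311964 in WT, so a gene with few WT UMIs was measured only where it was high in HKO. Counts and medians of sparse lists, such as recruited macrophage and cell cycle genes, therefore describe the measured members and favour the higher direction. The median log2 ratio over all genes was 0.42 in all members and 0.063 in hepatocyte-poor members. Ratios of single genes below are for the 20 WT and 104 HKO hepatocyte-poor members.

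**Figure D3:**
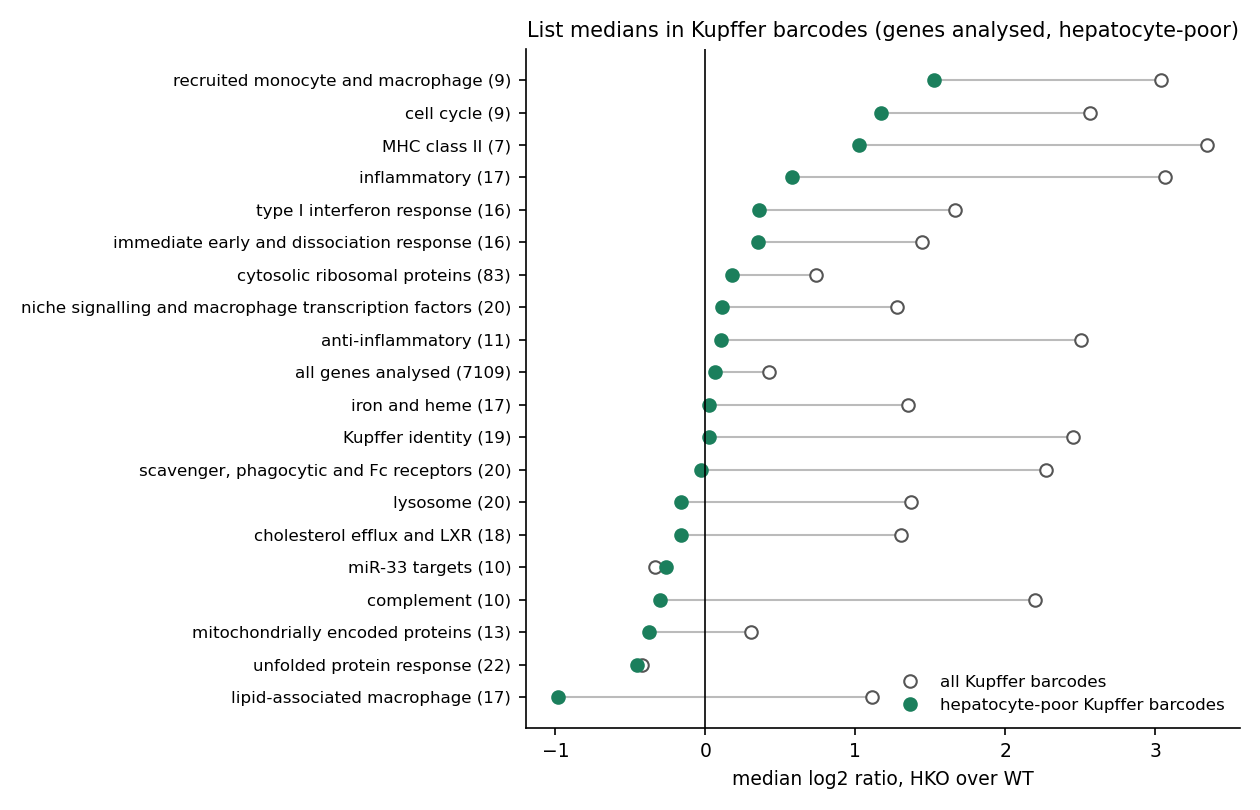
Median log2 ratio of HKO over WT for 19 gene lists and for all genes, in all Kupffer members (open symbols) and in hepatocyte-poor members (filled symbols). Kupffer identity moves from 2.45 to 0.026 and the lipid-associated list from 1.11 to -0.98 between the 2 sets, while MHC class II stays above 0 at 3.35 and 1.03.

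Kupffer identity genes differed by less than 2-fold in the hepatocyte-poor cells. The list's median was 2.45 in all members and 0.026 in hepatocyte-poor members, where 0 of 19 genes passed 2-fold in either direction and 11 were higher. Of all 7109 genes 8.92% passed 2-fold higher, 5.39% passed 2-fold lower and 3928 were higher, so nothing particular to the list is read from these counts. Per barcode the list had a median of 93.9 UMIs per 10000 in WT (40.2 to 177) and 100.3 in HKO (12.0 to 237). Vsig4 was lower in HKO, with a ratio of 0.694 (0.629 to 0.765). Timd4 was at 93.0 CPM (62.3 to 134) in WT against 159.6 CPM (135 to 188) in HKO, a ratio of 1.72 (1.15 to 2.66), and was detected in 7 of the 20 WT and 43 of the 104 HKO cells. Thinned to 1000 UMIs per barcode the Timd4 log2 ratio turned to -1.03, so its direction was not settled at this depth. Clec1b, the podoplanin receptor CLEC-2, was detected in 19 of the 20 WT and 85 of the 104 HKO cells at a ratio of 1.22 (0.975 to 1.53).

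The other identity genes split in both directions within 2-fold. C6 was at 1.29 (1.06 to 1.58), Folr2 at 1.26 (1.03 to 1.57) and Slc40a1 at 1577 CPM in WT against 1909.7 CPM in HKO, a ratio of 1.21 (1.09 to 1.34). Spic, a transcription factor of iron-recycling macrophages, was at 1.57 (1.12 to 2.24), while Id3, a factor needed for Kupffer cell development, was at 1.06 (0.887 to 1.27), and Nr1h3, which encodes LXR alpha, was at 0.934 (0.778 to 1.13). Cd163, the haemoglobin scavenger receptor, was found in 4 of the 20 WT and 20 of the 104 HKO cells, with 0.689 (0.476 to 1.01). Marco was found in 3 of the 20 WT and 11 of the 104 HKO cells, so its ratio of 0.649 rests on few cells.

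Shares of cells with a UMI moved with depth, which was greater in WT. After thinning to 1000 UMIs, for which 20 WT and 102 HKO cells were deep enough, Timd4 was found in 25% of WT and 13.7% of HKO cells, against 35% and 41.3% before, so no order of the libraries could be read from it. Trem2 was found in 5% and 7.84% after thinning, against 45% and 34.6% before, and Gpnmb in 15% and 11.8%, against 35% and 27.9%. H2-Ab1, an MHC class II chain, was found in 45% of WT and 65.7% of HKO cells after thinning and in 95% and 88.5% before, and its thinned order is that of its CPM. In T cells, which should lack them, Timd4 was found in 0 of 129 WT barcodes (median depth 6879 UMIs), which allows a share of barcodes with a UMI of up to 2.33% (3 of 129), and in 0 of 442 HKO barcodes (2798 UMIs), which allows up to 0.679% (3 of 442). Gpnmb was found in 2 and 1 of these T cells, so both genes were more often found in Kupffer cells than in this background. Ccr2, which Kupffer cells lack when mature, was found in 9 of 104 HKO cells and in 0 of 20 WT cells, which allows a share of cells with a UMI of up to 15% (3 of 20).

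Timd4 and the lipid-associated genes were found together in part of the cells. Of 43 HKO cells with Timd4, 18 held Trem2 and 9 held Gpnmb, and of 7 WT cells with Timd4, 2 held Trem2 and 1 held Gpnmb. Trem2 and Gpnmb were found together in 7 of 20 WT and 20 of 104 HKO cells. Cells with Trem2 were deeper, with a median of 22510 against 8701 UMIs in WT and 10546 against 6057 in HKO. Marco went with Timd4 in 3 of 3 WT and 10 of 11 HKO cells that held it. These counts depend on depth, and no link between the genes was tested.

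MHC class II genes, which present peptides to CD4 T cells, were higher in HKO Kupffer cells. Of 7 measured genes, 7 were higher and 4 passed 2-fold in hepatocyte-poor members, where 8.92% of all genes did. Ciita, 1 of the 4, passed the filter through HKO alone. The list had a median log2 ratio of 1.03 (3.35 in all members), and the median stayed between 0.74 and 1.13 under the alternatives run on hepatocyte-poor members. The alpha chain gene H2-Aa was at 1029 CPM (919 to 1148) in WT against 2223 CPM (2127 to 2323) in HKO, a ratio of 2.16 (1.92 to 2.44). The beta chain gene H2-Ab1 was at 795 CPM in WT against 1621 CPM in HKO, 2.04 (1.78 to 2.34). H2-Eb1 was at 744 CPM in WT against 1518 CPM in HKO, 2.04 (1.77 to 2.36), so these 3 chains shared a difference of nearly equal size. Cd74, the invariant chain that guides them to the endosome, was at 2869 CPM in WT against 4933 CPM in HKO, 1.72 (1.60 to 1.85). The peptide loading genes H2-DMa and H2-DMb1 were at ratios of 1.58 and 1.56. Ciita, the transactivator of the whole group, had 1 UMI in WT against 72 in HKO, in 1 of the 20 WT and 38 of the 104 HKO cells, a ratio of 25.1 (4.36 to 1004) with the wide interval that 1 UMI gives.

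Seen cell by cell, the summed MHC class II genes had a median of 38.8 UMIs per 10000 in WT (2.89 to 180) and 98.4 in HKO (0 to 273). Of 104 HKO cells 82 lay above the WT median, 13 lay above the highest WT cell, and 4 of 20 WT cells lay above the HKO median. The ranges overlap over most of their length. B cells and dendritic cells also express these genes. Their marker sums were 509 against 25.6 CPM and 386 against 471 CPM in HKO and WT. No order of dendritic cell RNA is read from its sum, since Bst2, an interferon gene too, held most of it over all members. Of the 3 measured dendritic markers, 2 were higher in HKO. A subset had fewer than 2 T, NK or B cell markers and stricter limits on endothelial and stellate genes (12 WT and 72 HKO). In it the MHC class II median was 0.74.

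Lipid-associated macrophage genes were lower in summed HKO Kupffer RNA. In hepatocyte-poor members 16 of 17 genes were lower and 8 passed 2-fold, where 5.39% of all genes did, with a median log2 ratio of -0.98, whereas over all members it was 1.11, the reverse direction. Trem2 was at 423 CPM (354 to 502) in WT against 115 CPM (93.8 to 139) in HKO, a ratio of 0.272 (0.208 to 0.354), and Gpnmb at 574 CPM (493 to 664) in WT against 157 CPM (132 to 186) in HKO, 0.274 (0.218 to 0.344). Cd9, a tetraspanin of the same programme, was at a ratio of 0.320 (0.233 to 0.439) and Cd63, a lysosomal tetraspanin, at 0.475 (0.393 to 0.575). Fabp5, a fatty acid binding protein, was at 0.268 (0.210 to 0.342) and was found in 5 of the 20 WT and 19 of the 104 HKO cells. Atp6v0d2, a subunit of the vacuolar proton pump, was at 0.355 (0.236 to 0.535). Lpl, lipoprotein lipase, and Apoe, the apolipoprotein that macrophages secrete, were at 0.964 (0.884 to 1.05) and 0.990 (0.960 to 1.02), so neither shared the difference.

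A few WT cells held most of the WT UMIs of these genes. Of the WT UMIs of the list without Apoe, 3 of 20 barcodes held 59.7% and the top barcode 28.0%, against 16.6% and 5.64% in HKO. Per barcode the medians were close, at 55.9 UMIs per 10000 in WT (21.2 to 403) and 62.1 in HKO (4.22 to 297), while the upper quartile was 133 in WT and 99.2 in HKO. Without the barcode of each library that held the most UMIs of the list, its median was -0.26 on the log2 scale. For the single genes, leaving out the top barcode of each gene left Trem2 at -1.58, Gpnmb at -1.69 and Cd9 at -1.47, and turned Mmp12 from a ratio of 0.433 to a log2 value of 0.063, since 1 cell held 67.3% of its WT UMIs. Shares of cells told of detection, not of level. Trem2 was found in 9 of the 20 WT and 36 of the 104 HKO cells and Gpnmb in 7 of the 20 WT and 29 of the 104 HKO cells. Spp1, another gene of the programme, was found in 6 of 20 WT and 10 of 104 HKO cells, beside 10.6% and 1.73% of free RNA barcodes.

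**Figure D4:**
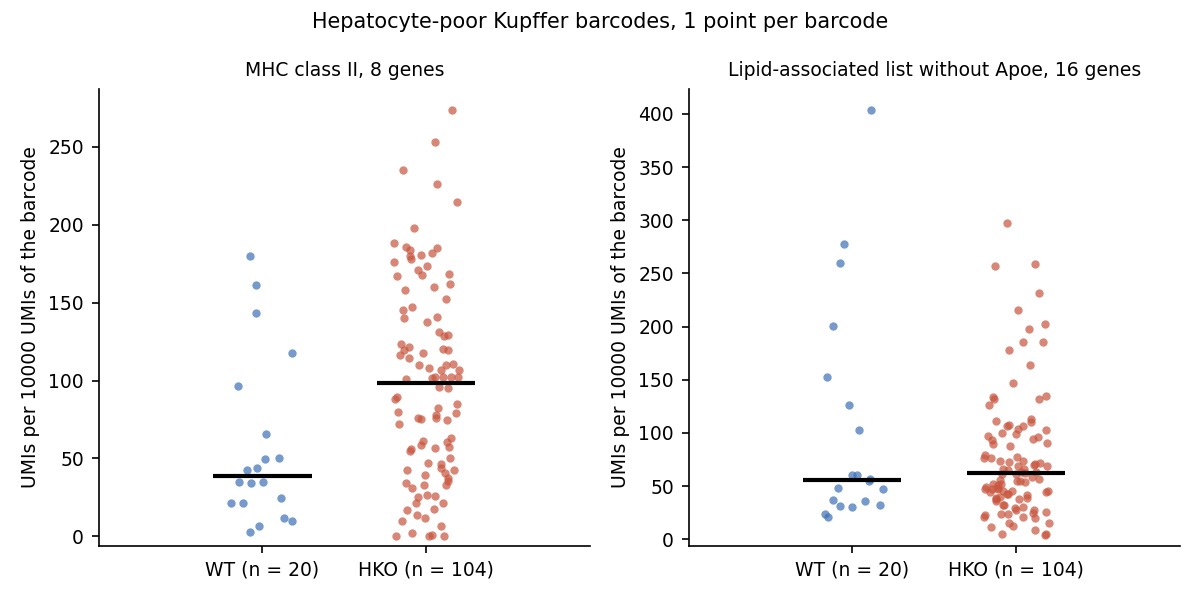
Summed UMIs per 10000 of 8 MHC class II genes and of 16 lipid-associated genes (Apoe left out) in each hepatocyte-poor Kupffer barcode, 20 WT and 104 HKO, with a line at the median. For MHC class II the HKO cells centre on 98.4 against 38.8 in WT, and for the lipid-associated genes the medians are 62.1 and 55.9 with a few WT cells far above the rest.

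Genes of monocytes and recruited macrophages had a lower sum in HKO, most of it Lyz2, at 2824 CPM in WT and 1699 CPM in HKO (barcode medians 1466 and 1287 CPM). Of 16 genes 9 passed the filter, several with 0 or 1 WT UMI and so through HKO alone, 7 of them at least 2-fold higher, and nothing is read from that count. Lyz2, lysozyme, was lower at 0.466 (0.426 to 0.510), and the median log2 ratio of the 9 was 1.52 (3.03 in all members). Plac8 had 7 UMIs in WT against 124 in HKO, a ratio of 6.17 (2.91 to 15.7). S100a6, a calcium-binding protein, had 0 UMIs in WT against 49 in HKO, at least 5.69-fold higher. Cx3cr1 had 4 UMIs in WT against 33 in HKO, 2.87 (1.02 to 11.2), and was found in 3 of the 20 WT and 12 of the 104 HKO cells. Thinned to 1000 UMIs the list's median was -0.0003, and with the stricter limits on other cells' markers it was 0.61. S100a9, a neutrophil and monocyte gene, had 1 UMI in WT against 38 in HKO, with 65.8% of the HKO UMIs in 1 barcode. S100a8 and S100a9 are on the neutrophil marker list too.

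Of 17 measured inflammatory genes 14 were higher in HKO in hepatocyte-poor members, 4 of them past 2-fold, where 8.92% of all genes were. Of those 4, Il6 and Ccl5 passed the filter through HKO alone, which leaves Il1b and Tnf, and nothing is read from the count. The list's median was 0.58 (3.07 in all members). Il1b, the inflammasome-processed cytokine, had 27 UMIs in WT against 222 in HKO, 86.5 CPM in WT against 248 CPM in HKO, a ratio of 2.86 (1.92 to 4.44). Tnf had 31 UMIs in WT against 227 in HKO, a ratio of 2.55 (1.75 to 3.84), and Il6 had 2 UMIs in WT against 43 in HKO, a ratio of 7.49 (1.95 to 63.8). Ccl5, a chemokine that T and NK cells also make, had 4 UMIs in WT against 260 in HKO, a ratio of 22.6 (8.73 to 83.7), with 32.7% of the HKO UMIs in 1 barcode. T and NK cell markers were at 262 CPM in HKO and 12.8 CPM in WT, and their part in the Ccl5 result was not tested. Nlrp3, the inflammasome sensor, was at 1.77 (1.22 to 2.64), the co-stimulatory receptor Cd86 at 1.50 (1.25 to 1.79) and the chemokine Cxcl2 at 1.79 (1.42 to 2.29). Thinned to 1000 UMIs, Tnf, Cd86 and Nlrp3 were at log2 ratios of -0.029, -0.029 and -0.77, at a depth where few cells keep a UMI of them. Anti-inflammatory genes had a median of 0.10 (2.50 in all members). Il10ra, a chain of the IL-10 receptor, was at 2.97 (1.84 to 5.06), while Il10 itself was at 1.04 (0.715 to 1.53) and Hmox1, haem oxygenase, at 1.15 (0.985 to 1.35).

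**Figure D5:**
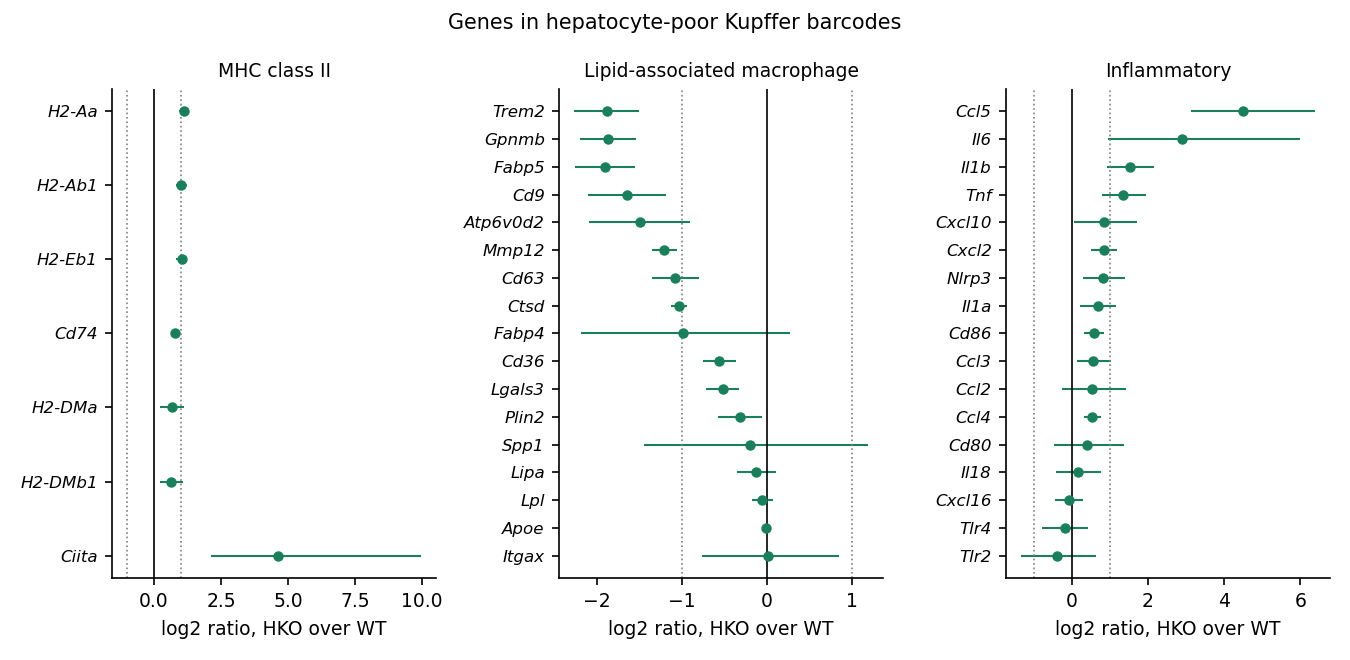
Log2 ratio of HKO over WT with 95% counting intervals for 7 MHC class II, 17 lipid-associated and 17 inflammatory genes in hepatocyte-poor Kupffer cells; dotted lines mark 2-fold in each direction. The 7 MHC class II genes lie above 0, 16 of 17 lipid-associated genes below 0 and 14 of 17 inflammatory genes above 0.

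Uptake and digestion genes had group medians near 0. The scavenger, phagocytic and Fc receptor list had a median of -0.027, with 10 of 20 genes higher. Mrc1 was at 1.07 (0.942 to 1.23), Mertk, a receptor for apoptotic cells, at 1.07 (0.941 to 1.22), Fcgr4, an activating IgG receptor, at 1.59 (1.27 to 2.01) and Cd36, a fatty acid and lipoprotein receptor, at 0.679 (0.596 to 0.776). Colec12 was at 0.177, with 58.5% of its WT UMIs in 1 barcode. The lysosome list had a median of -0.16 with 18 of 20 genes lower, 2 of them past 2-fold where 5.39% of all genes were, and turned to 0.0071 when thinned. Cathepsin D (Ctsd) was at 4828 CPM in WT against 2358 CPM in HKO, a ratio of 0.489 (0.457 to 0.522), and cathepsin L (Ctsl) at 0.407 (0.337 to 0.493), although Ctsl turned to a log2 ratio of 1.23 when thinned. Cathepsins B (Ctsb) and C (Ctsc) were at 0.807 (0.766 to 0.852) and 1.35 (1.23 to 1.48). Complement genes had a median of -0.31. C3 was at 0.567, but free RNA was expected to give 154 of its 161 WT UMIs, and properdin (Cfp) was at 1.10 (0.915 to 1.33).

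Iron genes had a median of 0.027, with 9 of 17 genes higher. Of the 17, 0 passed 2-fold higher and 2 passed 2-fold lower, where 8.92% and 5.39% of all genes did. Their summed level was 19839 CPM in WT and 14646 CPM in HKO. Ferritin heavy chain (Fth1) was at 0.593 (0.564 to 0.623). The transferrin receptor Tfrc had 33 UMIs in WT against 14 in HKO, a ratio of 0.148 (0.0730 to 0.284).

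The cholesterol efflux genes and the listed miR-33 targets went in both directions. The cholesterol efflux and LXR list had a median of -0.17 in hepatocyte-poor members (1.30 in all), which turned to 0.29 when thinned, and the 10 measured of 14 miR-33 targets one of -0.26 (-0.34 in all). Of those 10, 2 that passed the filter through HKO were at least 2-fold higher, Prkaa1 with 5 UMIs in WT against 31 in HKO and Irs2 with 4 UMIs in WT against 24 in HKO, and 2 at least 2-fold lower, Abcb11 with 19 UMIs in WT against 18 in HKO and Crot, where 8.92% and 5.39% of all genes were. Abca1, the cholesterol exporter to apolipoprotein A-I, was at 833 CPM (735 to 941) in WT against 722 CPM (668 to 780.0) in HKO, a ratio of 0.866 (0.749 to 1.00), and was found in 19 of the 20 WT and 89 of the 104 HKO cells. Abcg1, the exporter to HDL, was at 1.13 (0.868 to 1.48). Srebf1, the LXR-driven lipogenic factor, was at 0.332 (0.171 to 0.643). Cpt1a, the mitochondrial gate of fatty acid oxidation, was found in 17 of the 20 WT and 57 of the 104 HKO cells, at 0.805 (0.569 to 1.15). Crot, the peroxisomal carnitine octanoyltransferase whose RNA carries miR-33 sites, could not be read in Kupffer cells. It had 82 UMIs in WT against 104 in HKO, of which free RNA was expected to give 80.3 and 88.8, and its log2 ratio turned from -1.18 to 1.47 when free RNA was subtracted.

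The list of niche signalling genes (TGF-beta and Notch pathways among them) and macrophage transcription factors had a median of 0.11 over 20 measured genes. Of these 0 passed 2-fold, where 8.92% of all genes were past it higher and 5.39% lower, so nothing is read from that count. Maf was at 1.63 (1.36 to 1.97) and Zeb2, which keeps tissue macrophage identity, at 1.40 (1.28 to 1.55). Irf8 was at 1.69 (1.28 to 2.26) and turned to a log2 ratio of -0.077 when thinned. Immediate early genes, which tissue dissociation also induces, had a median of 0.35, with 15 of 16 higher. Egr1 was at 2.35 (1.96 to 2.83) and Fos at 1.28 (1.10 to 1.50). Since Tnf, Il1b and Cxcl2 are rapid-response genes as well, their values stand beside this one, and a part of dissociation in them was not tested.

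Unfolded protein response genes were lower in HKO, 20 of 22 with 3 past 2-fold, where 5.39% of all genes were, and a median of -0.45 (-0.42 in all members). With free RNA subtracted the median was -0.36 in hepatocyte-poor members, and in all members it turned to 0.11 over the 12 genes left. The chaperone Hspa5 (BiP) was at 0.717 (0.609 to 0.845), the disulfide isomerase Pdia3 at 0.467 (0.377 to 0.580) and Herpud1, an ER degradation component, at 0.473 (0.327 to 0.688). These genes are also expressed by hepatocytes, whose markers were at 34850 CPM in WT and 16692 CPM in HKO, and their part in the result was not tested. Type I interferon genes had a median of 0.36, with Rsad2 and Ifit2, both antiviral effectors, at 2.69 (1.81 to 4.14) and 2.55 (1.57 to 4.36), and Irf7 at 1.60 (1.13 to 2.31). Of 18 cell cycle genes 9 passed the filter, some of them through HKO alone, with a median of 1.17 that turned to -0.029 when thinned. Top2a had 1 UMI in WT against 48 in HKO, with 50.0% of the HKO UMIs in 1 barcode. Mki67, the marker of cycling cells, was found in 1 of 20 WT and 9 of 104 HKO cells. Ribosomal protein genes had a median of 0.18, with 69 of 83 higher, and mitochondrially encoded genes one of -0.38, with 13 of 13 lower, which turned to 0.34 in cells with a hepatocyte share under 5% and to 0.19 with the stricter limits on other cells' markers.

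Among genes with at least 50 UMIs and no barcode with over 25% of them, the highest HKO ratios in hepatocyte-poor members were those of Skap1, a T cell adaptor, Rbm42 at a ratio of 4.61 (1.70 to 17.6), Dapp1 at 4.25 (1.72 to 13.5), Agfg1, Rlim, Rabgap1l, Ralgapa2, Taf3, Kdm6b, a histone demethylase, at 3.00 (1.68 to 5.81), and Usp32. The lowest included Ehhadh, Tat, Tkfc, Hsd11b1, Rdh7, Ces3a, Glo1, Cfhr2 and Serpina1d. Most of the lowest, such as the peroxisomal enzyme Ehhadh, tyrosine aminotransferase (Tat) and a serpin, are hepatocyte genes, and the hepatocyte marker list had a median log2 ratio of -1.17 in the same cells.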

How the data were processed

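The deposited values were whole-number UMI counts per gene and barcode, which the authors made with Cell Ranger (7.1.0 in the matrix header; 10x Genomics 3' v2 chemistry and mm10 per the labels and the submitters' processing notes, which also name R 3.0 and Seurat 3). The libraries held 130451427 UMIs in WT (median 2658 per barcode) and 52563185 in HKO (median 1130). How the deposited barcodes were selected is not given in the sources used here. No column of per-sample values was left unused.

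Counts were summed over Kupffer barcodes of a library and divided by their total (CPM). Ratios carry exact intervals conditional on the sum of both counts, levels Poisson and shares Clopper-Pearson intervals, all at 95% and for counting error only. Genes needed 20 UMIs over the groups compared, a zero was set to 3 counts for a bound (shares of 0 included), and 2-fold was the limit for a count. The 24 rule genes and 38 symbols shared by several genes were left out. Free RNA barcodes lay within 25% of the commonest depth, with fewer than 3 of the 6 macrophage genes and 0 Clec4f UMIs. T cell barcodes held at least 2 of Cd3d, Cd3e, Cd3g, Trac and Trbc2 and fewer than 3 of the 6 macrophage genes. No doublet caller was run; the rule removes barcodes with at least 4 endothelial or 3 stellate genes, and a stricter exclusion was an alternative. Barcode sequences of the WT library were not analysed here, so barcodes shared by the libraries were not counted. Named genes were those of the fixed lists, the rule, and the 10 highest and lowest genes of each comparison, with the 20 genes that lead over all other barcodes. The members and lists were chosen with earlier results of these data known. The ratio code was tested on simulated data. Intervals came from scipy 1.17.1, sums and tables from numpy 2.4.6 and pandas 2.3.3, and plots from matplotlib 3.10.9, under Python 3.11.15. Some items of these lists are not reported here.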

Additional observations from a re-analysis of the deposited data

How the results depend on the processing

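No paired analysis was possible because each genotype was 1 library, so the shared replicate number pairs no samples and no library could be left out. The limit on hepatocyte RNA, the denominator without free RNA barcodes, and every alternative run on hepatocyte-poor members, was chosen after seeing the data. The cause of the changes below was not tested unless the construction of the alternative shows it. The log2 medians of all members depended most on the processing. With at least 2 Clec4f UMIs, stricter exclusion of doublets, free RNA subtracted, barcodes weighted equally, thinning to 1000 UMIs and hepatocyte-poor members, in that order, Kupffer identity became 1.61, 0.86, -0.13, 1.26, 1.31 and 0.026, MHC class II 2.57, 1.42, 0.65, 1.93, 1.78 and 1.03, and inflammatory genes 2.27, 1.27, 0.52, 2.07, 2.51 and 0.58. Lipid-associated genes became 0.19, 0.038, -1.28 and 0.48 under the first 4 and -0.98 in hepatocyte-poor members. Recruited macrophage genes became 0.87 with stricter exclusion, 0.71 with free RNA subtracted and 0.24 thinned. Anti-inflammatory genes became 0.86 with stricter exclusion, -0.0066 with free RNA subtracted and 0.10 in hepatocyte-poor members, and the unfolded protein response 0.11 with free RNA subtracted. Genes past 2-fold numbered 970 higher and 833 lower with stricter exclusion, 1247 and 1081 with free RNA subtracted, 516 and 366 thinned, and 634 and 383 in hepatocyte-poor members. WT members numbered 42 with at least 2 Clec4f UMIs, 43 with stricter exclusion, 47 with at least 4 of 6 macrophage genes and 20 hepatocyte-poor. Their share of macrophage barcodes was 27.8%, 64.4% and 64.5% with at least 2 Clec4f UMIs, at least 4 of 6 macrophage genes and hepatocyte-poor members, and in HKO 53.8%, 74.3% and 75.9%. The HKO share of kept barcodes over the WT share was 8.44 in hepatocyte-poor members, 1.205 with free RNA barcodes left out of the denominator and 3.72 with both. Against Clec4f-negative macrophages, 379 genes were higher in both libraries with at least 2 Clec4f UMIs and 152 in hepatocyte-poor members, and 59 were lower with stricter exclusion and 63 in hepatocyte-poor members. Within hepatocyte-poor members, thinning gave lysosome 0.0071, recruited macrophage -0.0003, cholesterol efflux and LXR 0.29, unfolded protein response -0.60 and cell cycle -0.029, with 152 genes higher and 85 lower, and log2 ratios of -1.03 for Timd4, 1.23 for Ctsl, -0.029 for Tnf, -0.029 for Cd86, -0.77 for Nlrp3 and -0.077 for Irf8. Mitochondrially encoded genes became 0.34 with a hepatocyte share under 5% and 0.19 with stricter exclusion. Mmp12 became 0.063 without the barcode with most of its UMIs in each library, and Crot 1.47 with free RNA subtracted. Depth limited WT most, since 20 barcodes and 311964 UMIs stand behind each hepatocyte-poor WT value, and genes with fewer than 3 WT UMIs, such as Ciita and Il6, have intervals that span over 10-fold.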
